A study of Mus musculus with 12 samples.

Results

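The genes of the extracellular matrix, the integrin receptors that hold cells to it and the metalloproteases that cut it were examined for promoter methylation in colon epithelium of mice with induced Dnmt3b, a de novo DNA methyltransferase. Members were taken by gene symbol: collagens (Col and a digit), laminins (Lama, Lamb, Lamc), fibrillin (Fbn), integrins (Itga, Itgb), ADAM and ADAMTS proteases, matrix metalloproteases (Mmp) and their tissue inhibitors (Timp), with a few genes left out by name and not analysed here. The rule itself used symbols and no measured value, but it was set with earlier results of these data known. It found 92 of the 12098 genes listed. Of these, 3 carry the letters of the families without belonging to them: Col4a3bp encodes a ceramide transfer protein, and Itgb1bp1 and Itgb3bp encode proteins named for binding integrin beta chains. Lamb1-1 is an older symbol of Lamb1, and Itgbl1 resembles a beta integrin but is not a receptor subunit.

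The study compared 3 control with 3 Dnmt3b-induced mice of the C57BL/6 strain, all fed chow. Induced mice drank doxycycline at 0.5 g/l for 3 months in water that was renewed every 3 days, and control mice drank regular water. Only induced mice received the drug, so doxycycline itself cannot be told apart from the induction of Dnmt3b. The labels do not say whether control mice carried the inducible transgene, which promoter drove it, or how old the mice were. DNA of epithelial cells isolated from the colon was cut with MspI, and each mouse gave a library of short (40 to 120 nt) and a library of long (120 to 220 nt) fragments for bisulfite sequencing, 12 libraries in all.

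Collagens, laminins and fibrillins are the structural proteins of the matrix. Type IV collagens and laminins form the basement membrane on which the colon epithelium sits, whereas fibrillar collagens are made mainly by fibroblasts below it. Integrins pair an alpha with a beta chain, and the epithelium uses such pairs to bind laminin and collagen. ADAM proteases shed proteins from cell surfaces, ADAMTS and Mmp enzymes process or cut matrix, and Timp proteins inhibit them. Methylation of a CpG-rich promoter usually goes with a silent gene, but expression was not measured here.

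Each value is the mean methylation of the CpG sites of a gene's promoter in 1 library, in percent of cytosines read as methylated, and changes are differences in percentage points, induced minus control. The tables give no read counts, so the depth and the counting error of a value are unknown, and few reads may stand behind a 0%. Short libraries listed 10358 to 10838 genes, of them 74 to 81 members, and long libraries 7278 to 8108 genes, of them 54 to 65 members. A mean level cannot separate a change in every cell from a change in some cells or in the makeup of the cells isolated. No run or date is given in the labels, so a batch cannot be told apart from the groups.

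Promoter windows of 300 bases, from 250 before to 50 after the start, come from RefSeq (GRCm38.p6) and were matched by gene ID for 60 of the 92 members. The genome build and the promoter window behind the methylation values were not stated in any label or header, and the windows show the sequence around the start and not the sites measured. At 65.2% matched, under the 80% set as the minimum, a comparison of CpG content over all members is void, and none is given. The windows below belong to members whose values the results turn on. They are written 5′ to 3′ on the gene's strand, with each CpG dinucleotide in capitals. Col4a1 (chr8:11312777-11313076, minus strand) and Col4a2 (chr8:11312555-11312854, plus strand) encode the most widespread type IV collagen chains, start back to back with windows that share 78 bases, and both rose.
Col4a1: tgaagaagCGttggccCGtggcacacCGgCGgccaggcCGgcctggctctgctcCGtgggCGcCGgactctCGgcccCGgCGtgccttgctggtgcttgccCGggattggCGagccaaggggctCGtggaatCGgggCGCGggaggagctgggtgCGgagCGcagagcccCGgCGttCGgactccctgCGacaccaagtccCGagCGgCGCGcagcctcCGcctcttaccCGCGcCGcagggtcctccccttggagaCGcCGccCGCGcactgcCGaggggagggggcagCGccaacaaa
Col4a2: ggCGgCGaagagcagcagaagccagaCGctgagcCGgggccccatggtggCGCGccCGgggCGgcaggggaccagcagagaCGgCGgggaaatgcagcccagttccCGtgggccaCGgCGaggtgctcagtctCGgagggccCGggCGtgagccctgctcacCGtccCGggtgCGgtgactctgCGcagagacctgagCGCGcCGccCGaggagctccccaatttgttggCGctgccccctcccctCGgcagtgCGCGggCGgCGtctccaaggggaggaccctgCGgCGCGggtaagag
Itga8 (chr2:12301895-12302194, minus strand) and Itgav (chr2:83724147-83724446, plus strand) are integrin alpha chains with similar CpG numbers in the window, of which Itga8 rose in the short fraction and Itgav stayed near 0%.
Itga8: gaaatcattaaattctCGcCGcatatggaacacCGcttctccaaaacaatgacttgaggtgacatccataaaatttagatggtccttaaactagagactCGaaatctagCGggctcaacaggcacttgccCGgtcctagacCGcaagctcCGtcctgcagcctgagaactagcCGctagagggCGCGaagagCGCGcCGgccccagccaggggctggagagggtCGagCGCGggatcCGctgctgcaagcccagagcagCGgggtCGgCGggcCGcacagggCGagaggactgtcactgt
Itgav: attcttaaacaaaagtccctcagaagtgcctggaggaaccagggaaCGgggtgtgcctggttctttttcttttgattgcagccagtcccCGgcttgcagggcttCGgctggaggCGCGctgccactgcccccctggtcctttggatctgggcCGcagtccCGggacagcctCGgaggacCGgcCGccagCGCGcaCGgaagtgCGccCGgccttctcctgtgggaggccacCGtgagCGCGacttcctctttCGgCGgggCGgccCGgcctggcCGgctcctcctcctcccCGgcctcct
Adam23 (chr1:63445641-63445940, plus strand) rose in the short fraction, whereas Adam10 (chr9:70678732-70679031, plus strand) stayed near 0%.
Adam23: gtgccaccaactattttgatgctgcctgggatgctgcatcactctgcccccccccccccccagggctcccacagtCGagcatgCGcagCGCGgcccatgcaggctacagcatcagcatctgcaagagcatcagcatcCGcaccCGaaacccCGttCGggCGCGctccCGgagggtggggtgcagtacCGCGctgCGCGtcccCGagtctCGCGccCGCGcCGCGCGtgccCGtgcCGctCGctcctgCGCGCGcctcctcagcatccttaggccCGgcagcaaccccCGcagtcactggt
Adam10: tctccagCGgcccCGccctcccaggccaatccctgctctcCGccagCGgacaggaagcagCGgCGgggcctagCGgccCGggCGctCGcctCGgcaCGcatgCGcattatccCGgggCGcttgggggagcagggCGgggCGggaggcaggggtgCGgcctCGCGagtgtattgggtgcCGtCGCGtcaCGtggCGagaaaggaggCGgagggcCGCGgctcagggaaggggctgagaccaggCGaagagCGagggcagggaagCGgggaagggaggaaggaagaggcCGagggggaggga
Lamb2 (chr9:108479612-108479911, plus strand) was highly methylated in the control mice.
Lamb2: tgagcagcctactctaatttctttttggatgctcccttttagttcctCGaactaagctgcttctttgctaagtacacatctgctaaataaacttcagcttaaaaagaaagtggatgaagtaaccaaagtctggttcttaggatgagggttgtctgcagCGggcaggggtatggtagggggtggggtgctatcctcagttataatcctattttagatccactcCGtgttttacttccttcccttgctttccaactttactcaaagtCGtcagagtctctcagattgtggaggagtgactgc
The windows of Col4a1 and Col4a2 held 37 and 33 CpG, those of Itga8 and Itgav 23 and 24, those of Adam23 and Adam10 31 and 32, and that of Lamb2 held 4. The median over all 32851 RefSeq windows was 7. The letters CCGG, the MspI site, which read the same on both strands, occurred 6 and 4 times in the Col4a1 and Col4a2 windows, 2 and 7 times in those of Itga8 and Itgav, and 2 times each in those of Adam23 and Adam10. They did not occur in the Lamb2 window, and 52.8% of all RefSeq windows hold them at least once.

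In short fragments 72 members were listed in all 6 libraries, and methylation rose in 48 of them and fell in none (limma, Benjamini-Hochberg adjusted p under 0.05). Over all 10027 genes tested 27.6% rose and 0.0798% fell. The mean level of the 72 members went from 5.48% ± 0.0816 in control to 40.2% ± 3.19 in induced mice (SD, n = 3 mice each), while the mean of all genes went from 4.19% to 17.2%. The median change was 42.1 points in the members and 0.50 points in all genes. Every induced mouse exceeded every control mouse in 58 of the 72 members, against 39.5% of all genes, and below them in none, against 0.908%. A change of over 50 points was seen in 34 members, against 13.5% of all genes.

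In long fragments 48 members were listed in all 6 libraries, and 24 rose and 0 fell, against 23.2% and 0.0163% of the 6127 genes tested. Their mean level went from 5.77% ± 0.30 to 38.4% ± 4.81 (SD, n = 3 mice each), beside 5.21% and 19.4% for all genes. The median change was 37.05 points, beside 0.94 points in all genes. Every induced mouse exceeded every control mouse in 33 of the 48 members, against 38.2% of all genes, and 18 members changed by over 50 points, against 14.2%. The test called no member lower in either fraction. At an unadjusted p under 0.05 the numbers of members lower were also 0 in short and 0 in long fragments, and limma on the logit scale called 0 in each.

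**Figure D1:**
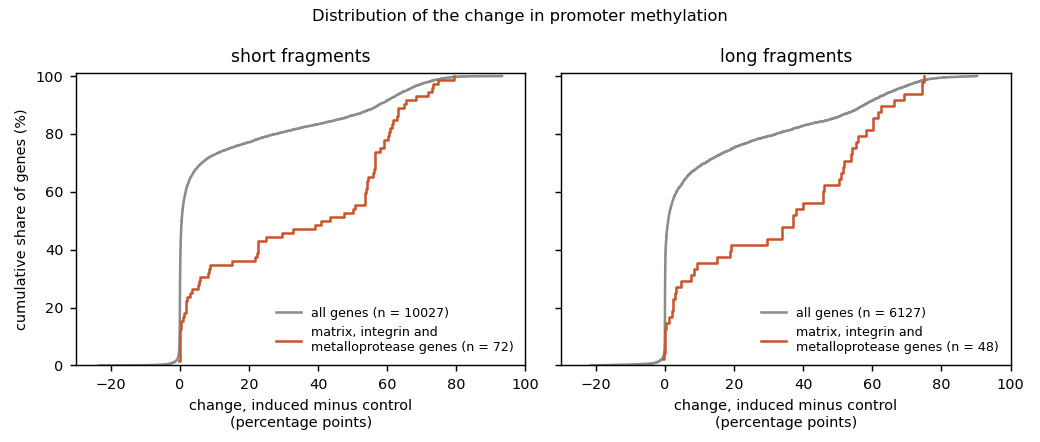
Cumulative share of genes (y axis, percent) by change in promoter methylation, induced minus control (x axis, percentage points), for all genes (grey) and for the matrix, integrin and metalloprotease genes (orange) in short and long fragments. The members' curves lie to the right of those of all genes, with medians of 42.1 and 37.05 points beside 0.50 and 0.94 points.

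The members did not move as a block. Of the 63 members with a control level under 10% in short fragments, 30 reached 50% or more in the induced mice, 10 lay between 10% and 50%, and 23 remained under 10%. Over all genes these classes held 1277, 916 and 6859 of 9052 in short fragments. In long fragments 18, 10 and 15 of 43 such members fell into these classes, beside 792, 707 and 3848 of 5347 such genes. The rises that passed the test ran from 2.83 points (Adam15) to 79.3 points (Col9a3) in short and from 7.61 points (Lamc1) to 75.0 points (Adamts3) in long fragments.

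**Figure D2:**
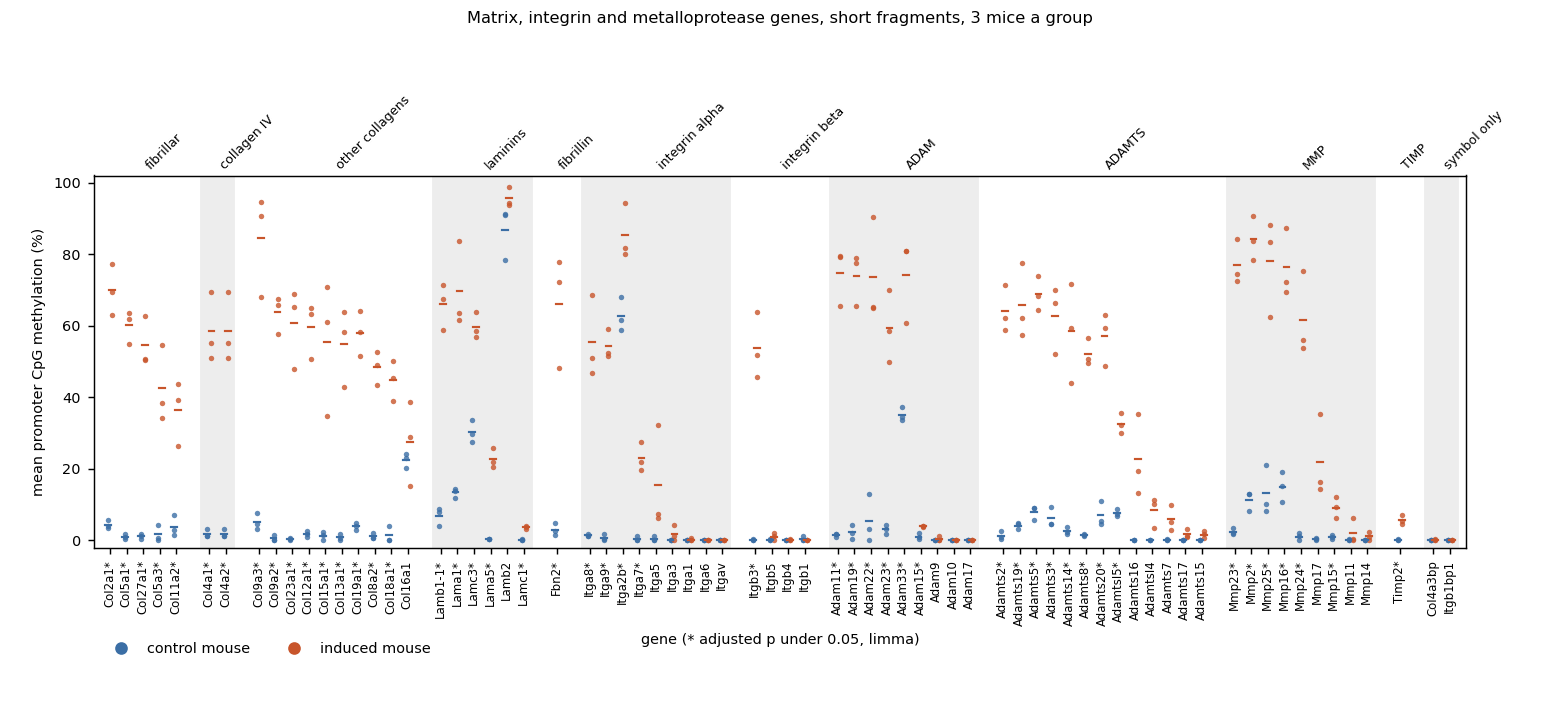
Promoter methylation (y axis, percent) of members listed in all 6 short-fragment libraries, grouped by family along the x axis. Points are single mice (control blue, induced orange), dashes are means of 3 mice, and an asterisk marks an adjusted p under 0.05. Every collagen but Col16a1 carries an asterisk, while integrins, ADAM and Mmp genes hold both members above 50% and members near 0% in the induced mice.

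All fibrillar collagens listed in all 6 libraries of a fraction rose, 5 of 5 in short and 3 of 3 in long fragments, against 27.6% and 23.2% of all genes. Col5a2 was listed in 3 short libraries only and was not tested. It stood at 13.5% and 51.8% in 2 control mice and at 56.45% in 1 induced mouse. Col2a1, the main collagen of cartilage fibrils, stood at 3.97%, 3.45% and 5.68% in the control mice and at 69.4%, 63.0% and 77.2% in the induced mice, in short fragments. Its change of 65.5 points (SE 3.92, limma adjusted p = 0.000572) was the largest of the family in that fraction. Col5a1, a chain of type V collagen, which starts fibril assembly, went from 1.03%, 0.43% and 1.76% to 63.6%, 55.0% and 61.9% in short fragments. In long fragments its values were 0.09%, 0% and 1.53% in control against 52.0%, 61.6% and 73.1% in induced mice, so the groups were far apart in both fractions. Col27a1 rose by 53.5 points in short and by 37.0 points in long fragments, and Col5a3 by 40.8 points in short fragments. Col11a2, a chain of the cartilage collagen XI, rose by 32.7 points in short fragments (adjusted p = 0.0103) and by 40.0 points in long fragments (adjusted p = 0.0214). Col11a2 no longer passed in short fragments when control mouse 1 or 3 was left out (adjusted p 0.0511 to 0.0519), and in long fragments without any 1 control mouse or induced mouse 3 (0.0617 to 0.0905).

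The type IV collagen genes lie in head-to-head pairs that share a promoter region, and the 2 genes of a pair carried identical values in every library that listed them. Each pair is therefore 1 measurement, but the counts of members hold both genes of a pair. With identical genes counted once, 47 members rose in short and 25 in long fragments. In those fits 2739 and 1421 of all genes changed, up or down. The numbers of genes and members left in those fits were not counted. No share can therefore be set beside the 47 and 25. Col4a1 and Col4a2 stood at 1.24%, 3.18% and 1.30% in control and at 55.1%, 50.9% and 69.5% in induced mice in short fragments, a rise of 56.6 points (SE 5.34, limma adjusted p = 0.00186). In long fragments all 3 control mice were listed at 0% and the induced mice at 88.0%, 57.0% and 78.0%, a rise of 74.3 points (SE 8.69, adjusted p = 0.00588). Col4a3 and Col4a4, chains of specialised basement membranes such as that of the kidney, were listed in all libraries in long fragments only. They were at 0% in every control mouse and at 16.2%, 33.0% and 52.1% in the induced mice. The groups did not overlap, but the spread of the induced mice was wide and the change of 33.8 points did not pass (adjusted p = 0.0857). It passed without induced mouse 1 (adjusted p = 0.0260), and not without any other single library. Col4a5 and Col4a6, the 2 members on the X chromosome, were listed in 4 long libraries only, at 17.2% in 1 control mouse and at 39.3%, 56.0% and 62.4% in the induced mice, and were not tested. A single control value has no spread, and the sex of the mice did not enter the analysis.

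Of the other collagens 9 of 10 rose in short and 5 of 6 in long fragments, against 27.6% and 23.2% of all genes. Col9a3, a chain of the fibril-associated collagen IX, stood at 7.53%, 3.10% and 4.69% in control and at 68.0%, 94.7% and 90.6% in induced mice in short fragments. Its change of 79.3 points (SE 7.92, adjusted p = 0.00219) was the largest among the members listed in all libraries of a fraction. Col9a2, its partner chain, rose by 63.2 points in short and by 69.1 points in long fragments. Col23a1 and Col13a1, collagens that span the cell membrane, rose by 60.1 and 54.2 points in short and by 46.0 and 58.2 points in long fragments. Col12a1, which binds to fibrils, rose by 57.9 points in short fragments (adjusted p = 0.000904). In long fragments its values were 16.2%, 2.50% and 3.92% in control against 43.1%, 39.65% and 76.7% in induced mice, without overlap. The change of 45.6 points had a limma adjusted p of 0.0639. Without induced mouse 3 the change was 33.8 points (0.0291). Col15a1, a collagen of the basement membrane zone, rose by 54.3 points in short fragments (adjusted p = 0.0179), a call that was lost without any 1 control mouse or induced mouse 2 (0.0682 to 0.0742), and by 50.8 points in long fragments. Col23a1 lost its call in long fragments (adjusted p = 0.0280) without any 1 control mouse or induced mouse 1 (0.0671 to 0.106).

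Col16a1 was the 1 collagen in short fragments that did not pass. It was already methylated in the control mice, at 24.1%, 20.3% and 23.2%, and stood at 38.6%, 29.0% and 15.2% in the induced mice (adjusted p = 0.645). The induced mice lay on both sides of the control mice, and the change of 5.09 points became -0.41 without induced mouse 1.

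Col18a1, the precursor of endostatin, was the 1 member of the 9 with more than 1 listed promoter whose promoters differed. The promoter listed under NM_009929 stood at 0%, 4% and 0.14% in control and at 50.1%, 38.95% and 45.4% in induced mice in short fragments. In long fragments the same promoter went from 0%, 0% and 2.09% to 73.5%, 54.8% and 69.6%, a rise of 65.3 points (SE 5.46, limma adjusted p over promoters = 0.00237). The promoter listed under NM_001109991 appeared in long fragments only, at 80.6%, 80.35% and 48.2% in control against 68.8%, 81.7% and 85.6% in induced mice. It was high in both groups, which overlapped, and its change was 8.98 points (SE 11.3, adjusted p = 0.647). The gene value averages both promoters, so the gene's control mean of 35.2% in long fragments describes neither of them.

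**Figure D3:**
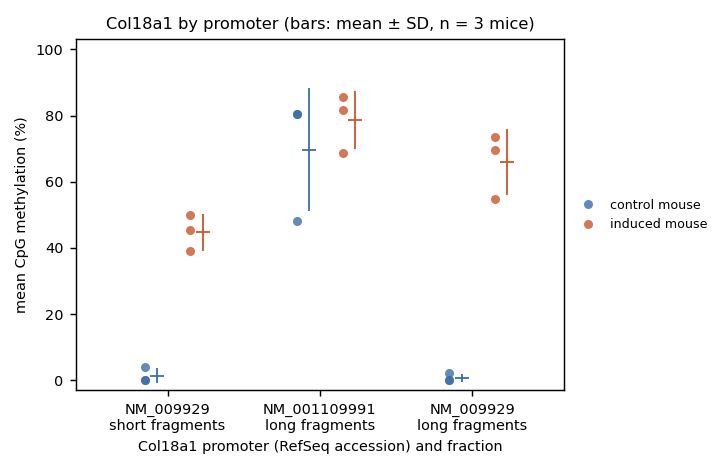
Methylation (y axis, percent) of the Col18a1 promoters by RefSeq accession and fraction (x axis). Points are single mice and bars are mean ± SD (n = 3). The NM_009929 promoter is near 0% in control mice and at 38.95% or more in induced mice in both fractions, while NM_001109991 is at 48.2% or more in every mouse.

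Laminins split by chain. In short fragments 5 of 7 rose, and in long fragments 1 of 2, against 27.6% and 23.2% of all genes. Lama1, the alpha 1 chain, stood at 13.9%, 14.5% and 11.8% in control and at 63.5%, 61.7% and 83.6% in induced mice. Lamb1-1, the beta 1 chain, rose by 59.1 points from 6.88% ± 2.55 to 66.0% ± 6.46 (SD, n = 3). Lamc3, a gamma chain, started at 30.3% ± 3.08 and rose by 29.4 points. Lama5, the alpha chain of most mature epithelial basement membranes, rose from 0.32%, 0.37% and 0.31% to 20.5%, 25.8% and 21.9%, a change of 22.4 points with little spread (SE 1.49, limma adjusted p = 0.000718). In long fragments Lama5 changed by 18.8 points and did not pass (limma adjusted p = 0.0919). Without induced mouse 1 the change was 13.1 points (0.0219).

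Lamc1 was low and Lamb2 high in both groups. Lamc1, the gamma 1 chain that most laminins contain, rose by 3.52 points to 4.07%, 3.84% and 3.19% in short fragments (adjusted p = 0.000937) and by 7.61 points to 8.52%, 8.81% and 5.84% in long fragments (adjusted p = 0.00619). Lamb2, a beta chain, stood at 91.3%, 90.9% and 78.4% in control and at 98.8%, 94.3% and 93.75% in induced mice. The groups did not overlap, but the change of 8.77 points did not pass (adjusted p = 0.264). Fbn2, a fibrillin of microfibrils, rose by 63.0 points in short fragments and by 66.2 points in long fragments.

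Among integrin alpha chains 4 of 9 rose in short and 0 of 6 in long fragments, and among beta chains 1 of 4 in each, against 27.6% and 23.2% of all genes. With so few genes these counts show nothing particular to integrins. Itga6, the partner of Itgb4 in hemidesmosomes, was at 0% in all 3 control mice and at 0.03%, 0.15% and 0.09% in the induced mice in short fragments. Itgb4 itself was at 0.05%, 0% and 0% in control and at 0%, 0% and 0.37% in induced mice. Itgb1, the beta chain shared by most matrix receptors, was at 0%, 0.02% and 1.14% in control and at 0%, 0.04% and 0.05% in induced mice. The groups overlapped for Itgb1 and Itgb4 and not for Itga6, and none of these chains passed in either fraction. Itga1, Itga3, Itgav and Itgb5 had means under 2% in both groups in short fragments. Itga2, a collagen receptor chain measured in long fragments only, was at 8.47% ± 1.97 in control and 7.84% ± 3.17 in induced mice (adjusted p = 0.887).

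The integrin genes that rose in short fragments were Itga8, Itga9, Itga7, Itga2b and Itgb3. Itgb3, which pairs with Itgav and with Itga2b, went from 0.27%, 0.08% and 0.02% to 45.6%, 51.8% and 63.9% in short and from 0%, 0.76% and 0% to 65.7%, 55.6% and 60.1% in long fragments (adjusted p = 0.00188 and 0.000726). It was the 1 integrin gene that passed in both fractions. Itga8, a receptor chain for nephronectin, went from 1.32%, 1.33% and 1.85% to 68.5%, 46.9% and 51.0% in short fragments (adjusted p = 0.00358). In long fragments its control mice stood at 50%, 12.5% and 21.4% and its induced mice at 56.4%, 39.96% and 45.3%, and the overlapping groups did not pass (adjusted p = 0.402). Itga9, which binds tenascin, rose by 53.6 points in short fragments. Its change of 51.4 points in long fragments had a limma adjusted p of 0.0506. Without induced mouse 3 the change was 38.9 points (0.0152). Itga7, a laminin receptor chain of muscle, rose to 21.9%, 27.5% and 19.6% in short fragments.

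Itga2b, the platelet integrin chain, was high in control mice at 58.8%, 61.7% and 67.95% and stood at 81.8%, 94.4% and 79.9% in induced mice. Its change of 22.6 points passed in short fragments (SE 4.97, adjusted p = 0.0309), but not without any 1 control mouse or induced mouse 1 (0.0607 to 0.114). In long fragments Itga2b was listed in 4 libraries, at 85.3% and 88.1% in control and at 89.2% and 70.3% in induced mice. A limma fit of genes with at least 2 libraries of each group gave a change of -6.98 points there (adjusted p = 0.676). Itga5, the fibronectin receptor chain, shows how single mice can differ. It stood at 0%, 1.11% and 0% in control and at 32.4%, 7.50% and 6.40% in induced mice in short fragments, and at 0% in all control mice and 20.8%, 56.7% and 10.99% in induced mice in long fragments. The groups did not overlap in either fraction, and neither change passed (adjusted p = 0.308 and 0.242). Without induced mouse 1, the highest there, the short-fragment change fell from 15.1 to 6.58 points and passed (limma adjusted p = 0.00420). It did not pass without any other single library.

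**Figure D4:**
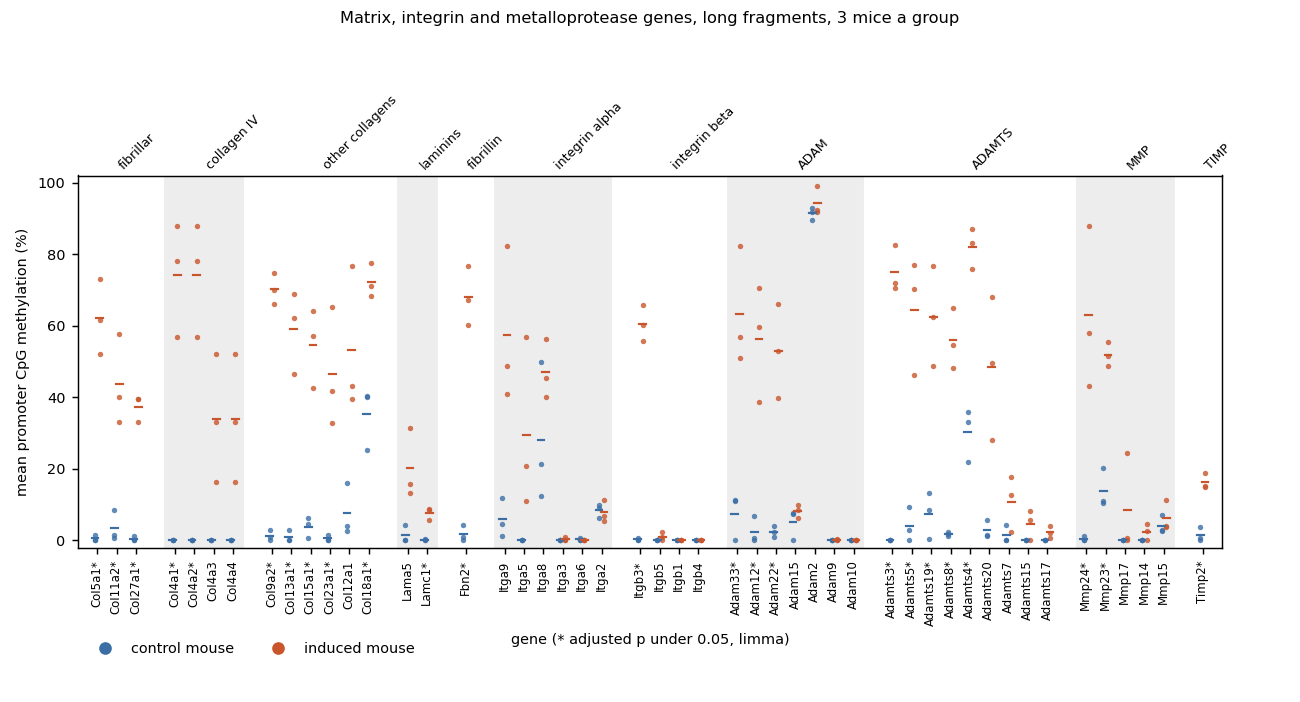
Promoter methylation (y axis, percent) of the 48 members listed in all 6 long-fragment libraries, grouped by family along the x axis. Points are single mice (control blue, induced orange), dashes are means of 3 mice, and an asterisk marks an adjusted p under 0.05. Itgb3 is the 1 integrin gene with an asterisk, and Adam2 is above 89% in every mouse.

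ADAM genes rose in 6 of 9 members in short and in 3 of 7 in long fragments, against 27.6% and 23.2% of all genes. Adam11, Adam22 and Adam23, which lack protease activity and act as receptors mainly in the nervous system, rose by 73.3, 68.2 and 56.3 points in short fragments. Adam11 stood at 1%, 1.69% and 1.70% in control and at 65.6%, 79.3% and 79.5% in induced mice. Adam19, an active protease of the meltrin group, went from 4.41%, 2.17% and 0.26% to 77.5%, 65.5% and 79.0%. By contrast Adam10 and Adam17, the main sheddases of epithelial cells, had no value above 0.22% in the short libraries. Adam10 was at 0.03%, 0.02% and 0% in control and at 0.11%, 0.04% and 0.22% in induced mice, and Adam17 at 0.04%, 0.06% and 0.14% against 0.05%, 0% and 0%. The groups overlapped for Adam17 and not for Adam10, and neither gene passed (adjusted p = 0.381 and 0.538). Adam9, another active protease, had values identical to those of the gene Tm2d2 and reached 1.11% in 1 induced mouse.

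Several ADAM calls were lost when 1 library was left out, while the size of the change stayed similar. Adam15 rose by 2.83 points to 3.89%, 3.83% and 4.01% in short fragments (adjusted p = 0.0143), and not without control mouse 3, induced mouse 2 or induced mouse 3 (0.0524 to 0.0653). Adam33 started at 35.1% ± 1.86 and rose to 74.2% ± 11.6 in short fragments (SD, n = 3, limma adjusted p = 0.0115), and not without control mouse 2 or 3 (0.0531 to 0.0554). In long fragments Adam33, Adam12 and Adam22 rose by 55.8, 53.8 and 50.5 points. Adam33 (adjusted p = 0.0192) and Adam12 (0.0175) lost the call without any 1 control mouse or induced mouse 2, with adjusted p of 0.0537 to 0.0816 and 0.0662 to 0.0787, and Adam22 (0.0107) without any 1 control mouse (0.0520 to 0.0552). In the fits that ended a call the changes were 52.1 to 59.1 points for Adam33, 52.1 to 56.0 for Adam12 and 49.7 to 51.3 for Adam22 in long fragments, and 38.4 to 38.8 for Adam33 and 2.71 to 2.87 for Adam15 in short fragments. Adam2, a sperm surface protein, was at 91.4% ± 1.65 in control and 94.4% ± 3.97 in induced mice in long fragments and did not pass (adjusted p = 0.536).

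Among ADAMTS and ADAMTS-like genes 8 of 13 rose in short and 5 of 9 in long fragments, against 27.6% and 23.2% of all genes. In short fragments every induced mouse exceeded every control mouse in 13 of 13, against 39.5% of all genes. Adamts2, Adamts3 and Adamts14, the proteases that trim procollagen, rose by 62.8, 56.6 and 55.9 points. Adamts3 stood at 4.60%, 4.58% and 9.32% in control and at 52.0%, 70.0% and 66.3% in induced mice in short fragments, and at 0.04%, 0% and 0% against 82.6%, 70.4% and 72.1% in long fragments. Adamts4 and Adamts5 cut aggrecan. Adamts4, measured in long fragments only, went from 21.9%, 33.05% and 35.9% to 75.9%, 83.1% and 87.0%, and Adamts5 rose by 60.9 points in short and 60.3 points in long fragments. Adamts19 rose by 61.6 and 55.2 points, and Adamts8 by 50.8 and 54.1 points. In long fragments the calls of Adamts5 (adjusted p = 0.0126) and Adamts19 (0.0129) were lost without any 1 control mouse (0.0526 to 0.0618 and 0.0506 to 0.060).

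The 5 ADAMTS genes that did not pass in short fragments were Adamts7, Adamts15, Adamts16, Adamts17 and Adamtsl4. Adamts15 stood at 0% in all control mice and at 1.76%, 2.53% and 0.66% in induced mice, and Adamts17 at 0% and at 0.98%, 1.23% and 3.13%. Adamts16 went from 0% to 35.4%, 13.3% and 19.5% with an adjusted p of 0.0608. On the logit scale Adamts15 passed (adjusted p = 0.0251), and so did Adamts17 in long fragments (0.0479). Each of the 5 passed in 1 or 2 of the fits with 1 library left out, always an induced mouse. Adamts16 passed without mouse 1 or 2 (0.0119 to 0.0415) and Adamts7 without mouse 1 or 3 (0.0442 to 0.0487). Adamtsl4 passed without mouse 2 (0.000958), and Adamts15 and Adamts17 without mouse 3 (0.0121 and 0.00436). None passed when a control mouse was left out, where adjusted p reached 0.176 for Adamts16 and 0.177 for Adamtsl4. The adjusted p there reached 0.232 for Adamts15, 0.265 for Adamts7 and 0.302 for Adamts17. Each gained call rests on 2 induced mice. Such gains were not counted over all genes, so they show nothing particular to these members. The change itself moved both ways in the fits that gave a call. It went from 22.7 points to 16.4 or 27.45 for Adamts16 and from 5.85 to 7.39 or 3.89 for Adamts7. For Adamtsl4 it went from 8.37 to 10.8, for Adamts15 from 1.65 to 2.145 and for Adamts17 from 1.78 to 1.105. In long fragments Adamts20, Adamts7 and Adamts15 passed without induced mouse 1, 1 and 2 (0.0138, 0.0352 and 0.0183). They did not pass with all mice (0.0509, 0.281 and 0.296) or without any other single library.

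Matrix metalloproteases rose in 6 of 9 members in short and in 2 of 5 in long fragments, against 27.6% and 23.2% of all genes. Mmp2, the gelatinase that cuts type IV collagen, stood at 12.9%, 13.0% and 8.13% in control and at 83.7%, 78.5% and 90.55% in induced mice. Mmp23 went from 1.68%, 3.51% and 2.03% to 72.5%, 74.5% and 84.2%, a change of 74.7 points that was the largest of the family. Mmp16 and Mmp24, both anchored in the membrane, rose by 61.3 and 60.6 points, and Mmp25, a protease of neutrophils, by 64.8 points. Mmp14, the membrane-bound activator of Mmp2, was at 0.15%, 0% and 0% in control and at 2.34%, 0% and 1.05% in induced mice, which overlapped and did not pass (adjusted p = 0.362). Mmp15 rose by 8.17 points (limma adjusted p = 0.0236), and not without any 1 control mouse or induced mouse 3 (0.0801 to 0.0956). Mmp17 changed by 21.6 points (0.0751), and by 14.9 points without induced mouse 3 (0.00124). In long fragments Mmp24 rose by 62.5 points (adjusted p = 0.0283), and not without any 1 control mouse or induced mouse 2 (0.0807 to 0.107). Mmp15 changed by 2.14 points there (adjusted p = 0.644), or by -0.30 without induced mouse 1.

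Timp2, an inhibitor that also takes part in the activation of Mmp2, was the 1 Timp gene among the members. It went from 0.02%, 0.05% and 0.41% to 7.12%, 5.45% and 4.71% in short fragments (adjusted p = 0.00422) and from 0.55%, 0% and 3.74% to 15.3%, 18.95% and 14.8% in long fragments (adjusted p = 0.00520). The groups did not overlap in either fraction. Of the genes that only carry the family letters, Col4a3bp and Itgb1bp1 were at 0.28% or less in every short library, did not pass, and had values identical to those of Polk and Cpsf3. Without the 3 genes of this kind 48 of 70 members rose in short fragments.

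Of the 42 members listed in all 12 libraries, 22 rose in both fractions, 7 in short fragments only, 0 in long fragments only and 13 in neither. The 7 were Col12a1, Lama5, Itga8, Itga9, Adam15, Adamts20 and Mmp15. This split was not counted over all genes, so it shows nothing particular to the members. A call in 1 fraction does not show a difference, so the change itself was compared between fractions with an interaction term in limma, with mouse as a random block. The change differed in 3 of the 42 members, against 4.71% of all 5309 genes in all 12 libraries, and none of the 7 was among them on this scale. The change of Mmp23 was 74.7 points in short and 38.0 points in long fragments, where its control mice stood at 10.5%, 20.1% and 11.2% and its induced mice at 51.5%, 48.7% and 55.4%. The difference, long minus short, was -36.7 points (SE 4.74, adjusted p = 0.00259). The change of Timp2 was larger in long fragments by 9.33 points (SE 1.77, adjusted p = 0.0188), and that of Lamc1 by 4.09 points (adjusted p = 0.0390). On the logit scale, which weighs shifts near 0% more, the difference did not pass for Timp2 (limma adjusted p = 0.674) or Lamc1 (0.0521). It passed for Mmp23 (0.00138), Adamts3 (0.00311), Itga8 (0.0177) and Col18a1 (0.0477). Itga8 is 1 of the 7. For Lamc1 the difference in points also did not pass without the block for mouse (0.0514). The long-fragment value of Col18a1 averages in a promoter not listed in short fragments, so its test does not compare the same promoter. The Col18a1 promoter listed in both fractions rose by 43.4 points in short and by 65.3 points in long fragments.

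**Figure D5:**
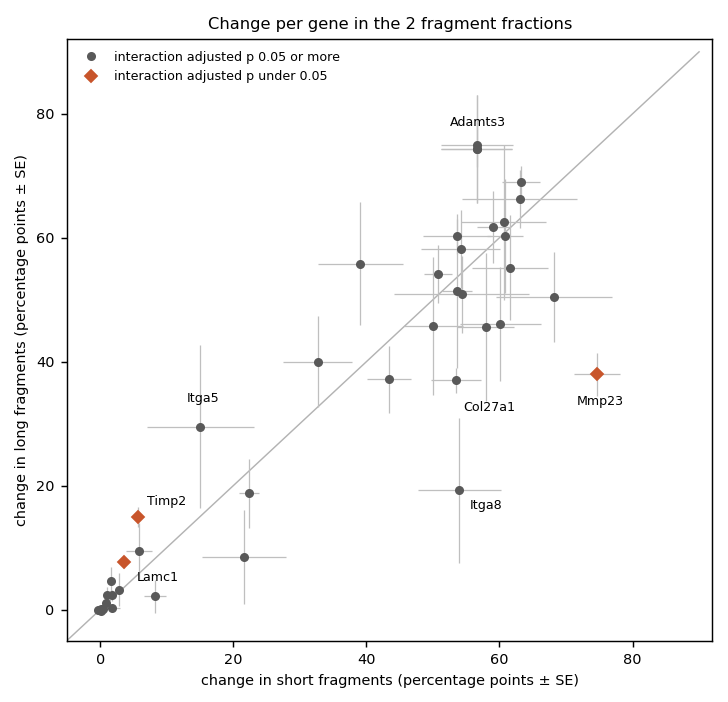
Change in short (x axis) against long fragments (y axis), both in percentage points ± SE, for the 42 members listed in all 12 libraries, and the line of equal change. Diamonds mark Mmp23, Timp2 and Lamc1, whose change differed between fractions (interaction adjusted p under 0.05), with Mmp23 below the line by 36.7 points.

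The induced mice differed among themselves in level. Over the 72 members in short fragments their means were 37.4%, 39.4% and 43.7% for mice 1, 2 and 3, and over the 48 in long fragments 34.9%, 36.5% and 43.9%. Mouse 3 was highest in 29 of the 48 members that rose in short and in 15 of the 24 in long fragments, and mouse 1 was lowest in 26 and 11. The means of all genes ran in the same order, 16.3%, 16.9% and 18.4% in short and 18.3%, 18.7% and 21.2% in long fragments. Of the rises called with all mice, 42 of 48 in short and 16 of 24 in long fragments were called whichever single library was left out. This was not counted over all genes, so it shows nothing particular to the members.

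Members missing from some libraries were not in these counts: 10 in short and 21 in long fragments were listed in part of the libraries, and 14 of the 92 were complete in neither fraction. In a fit of genes with at least 2 libraries of each group, 3 of the 5 such members that could be fitted in short fragments rose, against 26.9% of all genes in that fit. Col25a1, a membrane collagen, was at 6.83%, 0% and 14.3% in control and at 94.6% and 91.7% in the induced mice that listed it (adjusted p = 0.00159). Itgb8, a beta chain that activates TGF-beta, was at 9.49% and 27.75% in 2 control mice and at 81.25%, 89.6% and 93.9% in the induced mice (adjusted p = 0.00811), and Itgbl1 rose by 61.2 points (0.0108). None of the 9 such members passed in long fragments, where 20.7% of all genes in that fit rose. Most genes in these fits were listed in all 6 libraries of the fraction. The shares of 26.9% and 20.7% are therefore not those of partly listed genes alone. Col9a1 was listed in long fragments in the induced mice only, at 64.2%, 84.0% and 90.9%.

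Genes that work beside the members were counted from lists of other matrix genes, and the counts stand beside 27.6% of all genes that rose in short and 23.2% in long fragments. Of matrix glycoproteins and proteoglycans 39 of 48 rose in short and 20 of 32 in long fragments, with median changes of 47.4 and 50.8 points. Spock2, a secreted proteoglycan, rose by 76.95 points in short fragments, Smoc1, a matricellular protein, by 74.3, and Reln, the matrix protein of migrating neurons, by 73.3. Reln, Smoc1 and Acan, the cartilage proteoglycan, led in long fragments with 76.7, 72.7 and 71.85 points. Of matrix assembly and processing enzymes 18 of 28 rose in short and 7 of 18 in long fragments (medians 15.3 and 9.27 points). Has3, a hyaluronan synthase, rose by 71.6 and 70.55 points, Lox, which crosslinks collagen, by 61.2 and 66.9, Loxl1 by 61.8 in short and Leprel1, a collagen prolyl hydroxylase, by 59.3 in long fragments. Of integrin adaptors and other matrix receptors 5 of 19 rose in short and 1 of 10 in long fragments (medians 0.15 and 0.86 points), 26.3% and 10% of those measured, which in short fragments is close to the share of all genes. Fermt2, a kindlin that activates integrins, rose by 55.7 points in both fractions, and Parvb and Dst by 55.8 and 41.2 points in short fragments. No gene of these 3 lists fell.

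Markers of the cell types that the preparation could hold were read in the same way, though a promoter's methylation is not a measure of how many such cells there are. None of 7 colon epithelial markers in short and of 8 in long fragments rose or fell, and their mean ranged over mice from 0.131% to 0.756% in control and from 0.321% to 1.39% in induced mice in short fragments. In long fragments the ranges were 2.85% to 3.6% and 3.81% to 5.04%. These ranges include Krt18, which averaged 22.8% over the control group and 30.2% over the induced group. No other epithelial marker had a value above 5.03% in long fragments. Every induced mouse exceeded every control mouse for Krt18, but its change of 7.38 points did not pass (limma adjusted p = 0.163). Epcam, at the other end, was at 0% in all control mice of both fractions. Of stromal, muscle and endothelial markers 9 of 11 rose and 1, Rasip1, fell by 9.86 points in short fragments, and 4 of 5 rose in long fragments, against 27.6% and 23.2% of all genes that rose. Their mean ranged from 6.80% to 7.05% in control and from 53.1% to 62.7% in induced mice in short fragments, and from 6.11% to 10.4% and 40.9% to 77.6% in long fragments. Of immune markers 1 was measured in each fraction: Lck did not pass in short fragments and ranged from 0% to 1.11% in control and 0% to 0.34% in induced mice, and Coro1a rose by 61.1 points in long fragments, from a range of 8.05% to 17.9% to one of 68.9% to 82.3%. The part of cell makeup in the members' rises was not tested.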

How the data were processed

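Per the file headers, the authors deposited the mean CpG methylation fraction, from 0 to 1, per gene and per RefSeq promoter, 1 table per library. Conversion rate, minimum coverage, promoter limits, build and aligner were not given in the sources used here. Fractions were multiplied to percent, and a gene's value equalled the mean of its listed promoters within 0.005 points. Genes in all 6 libraries of a fraction were compared with limma 3.58.1 in R 4.3.3 (lmFit and eBayes on percent levels, Benjamini-Hochberg adjustment over all genes of the fraction, threshold 0.05), and promoters in the same way. The interaction fit took the 5309 genes in all 12 libraries, with a correlation of 0.0674 between the libraries of a mouse. Control and induced mice are separate animals. No pair of libraries of a fraction held the same values, and the fits were tested on simulated data.

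Members, families and lists were chosen with earlier results of these data known. Named were, per family and fraction, up to 4 members past the threshold with the largest change, the 1 with the smallest change, members over 50% in control mice, members that differed between fractions, X-linked members, members with identical values and up to 3 genes per list. Others were named after their values were seen, mainly those that changed their call without 1 library. Alternatives were a logit scale (offset 1%), at least 2 libraries per group, a replicate block, robust eBayes with trend, 1 fit over both fractions, fits per promoter, identical genes with a value above 0 counted once, and each library left out. Symbols were matched with RefSeq (GRCm38.p6). The values of 1 gene that the naming rule takes in are not reported here.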

Additional observations from a re-analysis of the deposited data

Results flagged for a closer look

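For 3 members the change differed between the short and the long fragments of the same mice by the interaction test. The difference, long minus short, was -36.7 points for Mmp23, 9.33 points for Timp2 and 4.09 points for Lamc1. Every induced mouse exceeded every control mouse in both fractions for each of these genes, so it is the size of the rise that differed and not its direction. The sites read in the 2 fractions are different MspI fragments, and their positions were not analysed here. On the logit scale the interaction passed for Mmp23, Adamts3, Itga8 and Col18a1, and not for Timp2 or Lamc1. For Col18a1 the long-fragment value averages in a promoter not listed in short fragments, so the same promoter was not compared. Over all 5309 genes 250 passed, and at an unadjusted p under 0.05 the shares were 14.3% of the members and 14.5% of all genes. Outliers were not tested, because each group has 3 mice.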

How the results depend on the processing

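None of the 48 rises called in short and 24 in long fragments changed sign when any 1 library was left out or in the other fits run over genes, and where a call was lost without 1 library the change was 91.2% to 111% (short) and 93.3% to 106% (long) of its size with all libraries. Of the members not called, 7 of 24 in short and 4 of 24 in long fragments changed sign without 1 library, among them Col16a1 (-0.41 points) and Mmp15 (-0.30 points), both without induced mouse 1. Kept signs, changes of sign and calls gained without 1 library were not counted over all genes. In 1 fit over both fractions, which tests only the genes in all 12 libraries, 1575 genes changed in short fragments instead of 2773, and 29 members, beside 29.5% of all genes, rose with a median change of 46.7 points instead of 48 members and 42.1 points. Mice of control and induced groups share only a replicate number: their deviations from the group means correlated at 0.0736, 0.0040 and -0.0498 in short and 0.0010, 0.0366 and 0.0247 in long fragments. With that number as a replicate block, 652 genes changed in long fragments instead of 1422, and 9 members rose instead of 24. In short fragments 2114 genes changed instead of 2773, and 41 members rose instead of 48. Leaving out each library in turn gave 885 to 1528 changed genes in long fragments and a median change of the members of 40.4 to 45.6 points in short fragments. On the logit scale 54 members rose in short and 31 in long fragments. Of all genes 3113 of 10027 changed in short and 1638 of 6127 in long fragments on that scale, up or down. The members gained included Col4a3 and Col4a4 (limma adjusted p = 0.0045) and Adamts17 (0.0479) in long and Adamts15 (0.0251) in short fragments. Itga2b lost its call in short fragments (0.0723) and Adam33 in long fragments (0.0544). The other alternatives left both counts of risen members within 1.5 times. Depth is unknown, so a few reads may stand behind single levels.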
